A study of Mus musculus with 44 samples.

Results

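Cbx7 and 8 of its Polycomb partners, Cbx2, Cbx6, Cbx8, Ezh1, Ezh2, Eed, Suz12 and Jarid2, were followed through 12 groups of mouse epiblast and endoderm libraries. They are 9 of the 32287 gene IDs in the expression tables, taken by gene name, with TPM (a level per transcript length, scaled to the same total in each library) summed per gene ID. Cbx7 was chosen by its TPM in the same groups, known from earlier results on these libraries, so its values are a description and carry no test. Tests are given for the 8 partners.

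The embryos were made by aggregating mCherry+ morulae (CD1/G4) with GFP+ mouse embryonic stem cells (G4), so that cells of extraembryonic origin carry mCherry and cells of embryonic origin carry GFP. Visceral endoderm, an extraembryonic layer, contributes cells to the gut tube, and the design sets these cells (exGut) beside gut cells of embryonic origin (emGut). RNA was taken from polyadenylated transcripts of low-input bulk samples in 44 libraries. Stages are given as labelled and include a delay from the transfer of the embryos to foster females.

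At E6.5, wild-type epiblast (Epi), distal extraembryonic endoderm (exEndo1) and proximal extraembryonic endoderm (exEndo2) were dissected by hand from single embryos, with 4 libraries each. At E9.5, the 5 wild-type groups were yolk sac endoderm (YsEndo), GFP+ midgut and hindgut with low mCherry (emMidgut, emHindgut) and mCherry+ midgut and hindgut (exMidgut, exHindgut), with 4 libraries each of cells pooled from 4 embryos and all 5 sorted on EPCAM, an epithelial surface protein. The authors describe the GFP+ cells with low mCherry as embryonic cells that took up remnants of extraembryonic ones, and these can bring in some transcripts. At E13.5, the groups were EPCAM+ GFP+ wild-type small intestine and colon (emSI, emColon) and EPCAM+ mCherry+ small intestine and colon with a Trp53 KO (exSI, exColon), with 3 libraries each from single embryos. For emSI and emColon no gate on low mCherry is named. Each intestine was split into small intestine and colon, and which libraries share an embryo is not given. Libraries of both organs, of both regions at E9.5 or of both origins may share embryos, and p-values over them treat them as independent. The KO was made by editing the zygote, and the exGut cells of this stage were sequenced in that genotype alone. Origin therefore always changes together with morula or stem cell derivation and reporter, and at E13.5 also with genotype, and these cannot be told apart. The GFP+ stem cell line was male, whereas mCherry+ cells could be of either sex, so sex may differ by origin as well. Its part in the values, those of X-linked genes among them, was not tested.

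Between 10382 and 13596 genes exceeded 1 TPM per library, and reads per gene are unknown. Epiblast markers (5 genes) summed to 1648 to 2867 TPM in Epi and visceral and yolk sac endoderm markers (7 genes) to 37490 to 41680 in YsEndo, while gut endoderm markers (5 genes) summed to 1102 to 3005 TPM in the gut libraries. Some libraries stood apart from their labels. emMidgut replicates 1 and 3 held germ cell markers (4 genes, summing to 253 and 207 TPM, against 5.52 and 4.04 in the other 2), and emSI replicates 1 and 2 held mesenchyme markers (6 genes, 401 and 102 TPM, against 1.93 in the other). Trp53 RNA at E13.5 ranged from 33.4 to 167 TPM in the 6 KO libraries and from 151 to 245 in the 6 wild-type ones, so transcript remained in the KO cells and its level does not by itself check the genotype.

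Polycomb proteins keep genes silent through 2 kinds of complex. Polycomb repressive complex 2 (PRC2) places methyl groups on lysine 27 of histone H3 through EZH1 or EZH2, held together by EED and SUZ12, with JARID2 as an accessory subunit that helps to recruit and stimulate it. Canonical PRC1 reads that mark through a chromobox protein such as CBX2, CBX6, CBX7 or CBX8, joined to a RING ubiquitin ligase, a PCGF protein and a polyhomeotic protein. CBX7 is known as the chromobox protein of self-renewing pluripotent cells, and CBX2 and CBX8 as ones that take its place as they differentiate.

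Cbx7 was high in all 7 groups of extraembryonic origin, intermediate in Epi and low in all 4 groups of embryonic gut. At E6.5, Cbx7 stood at 45.7, 40.8, 37.0 and 27.2 TPM in Epi. It stood at 138, 198, 148 and 108 TPM in exEndo1. It stood at 184, 219, 189 and 83.5 TPM in exEndo2. Every extraembryonic library thus lay above every Epi library, and replicate 4 was the lowest of its group in all 3 groups. At E9.5, the values were 85.8, 55.9, 69.9 and 78.6 TPM in YsEndo, below every library of exGut. In the midgut, Cbx7 was at 5.57, 7.26, 9.98 and 11.8 TPM in emMidgut and at 205, 152, 183 and 187 TPM in exMidgut. In the hindgut, it was at 1.76, 1.58, 2.53 and 3.32 TPM in emHindgut and at 112, 121, 167 and 146 TPM in exHindgut. No embryonic gut library came near an extraembryonic one in either region. At E13.5, Cbx7 was at 8.76, 3.26 and 0 TPM in emSI and at 48.0, 58.0 and 94.7 TPM in exSI. It was at 6.29, 0 and 16.8 TPM in emColon and at 83.9, 53.0 and 72.4 TPM in exColon. The groups stayed apart in both organs, with 1 embryonic library of each organ listed at 0.

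**Figure D1:**
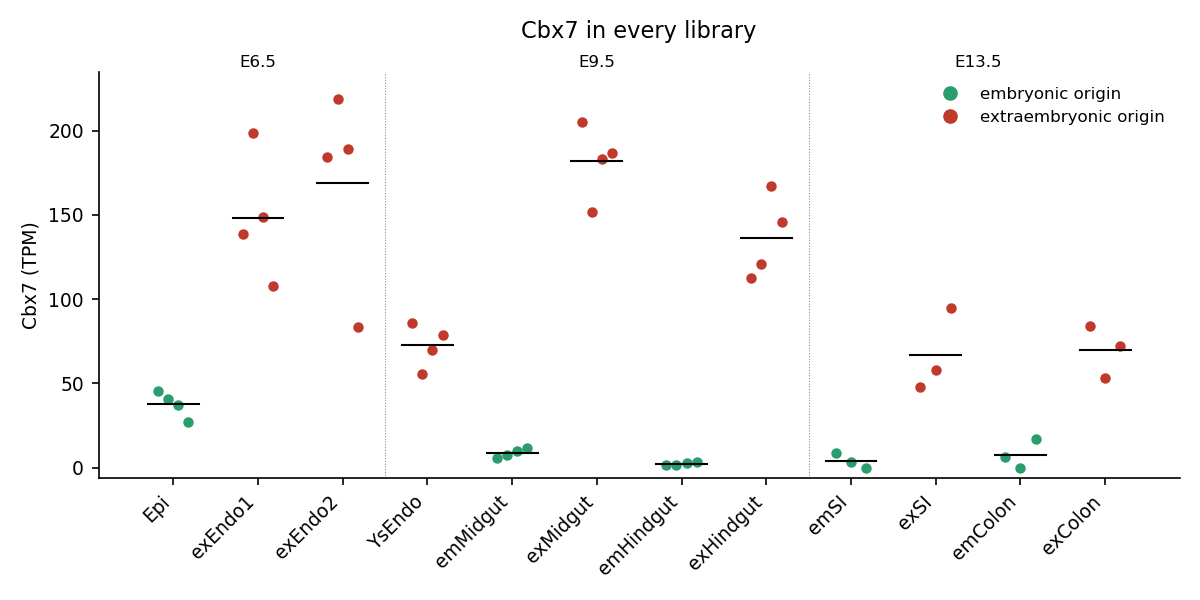
Cbx7 in each of the 44 libraries (points, TPM on a linear axis) with the group means (black lines), in order of stage and coloured by origin. The 8 libraries of exMidgut and exHindgut lie between 112 and 205 TPM and the 8 of emMidgut and emHindgut between 1.58 and 11.8 TPM.

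Ordered by mean TPM, exMidgut (182), exEndo2 (169), exEndo1 (148) and exHindgut (136) came first, and each overlapped its neighbour in the order. YsEndo (72.5), exColon (69.8) and exSI (66.9) followed and overlapped each other, below every library of the 4 groups above except exEndo2 replicate 4 (83.5 TPM). Epi (37.7) stood alone between them and the embryonic gut. emMidgut (8.64), emColon (7.68), emSI (4.01) and emHindgut (2.30) closed the order, each overlapping its neighbour.

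Mean Cbx7 in emMidgut was 4.76% of that in exMidgut, and in emHindgut 1.69% of that in exHindgut. mCherry RNA, which marks extraembryonic cells, was at 0.0181% and 0.0338% in the same pairs of groups. Mean Cbx7 in emSI was 5.99% of exSI and in emColon 11% of exColon, where mCherry was listed at 0 in every embryonic library. The deposited read coverage of Cbx7 ran from a median of 4.23 in emHindgut to 232 in exEndo2, and it was 0 in the 2 libraries listed at 0. In these bulk libraries, fewer cells with a transcript and less of it per cell cannot be told apart. The part of extraembryonic remnants in the emMidgut and emHindgut values was not tested.

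Cbx7 (ENSMUSG00000053411) lies on the minus strand of chromosome 15 from 79915807 to 79971119 (mm10). Its last 100 bases overlap Apobec3 on the other strand. The quantification settings listed by the authors name no strand option, so reads in these bases may not have been assigned by strand. Apobec3, named after its values were seen, averaged 9.08 TPM in exGut and 20.6 in emGut, the opposite order to Cbx7. On the minus strand the 5′ end of Cbx7 as quantified is 79971119, and the RefSeq start used for the sequence lies inside the gene span. Which start the transcripts used was not tested. The bases just upstream of this RefSeq start are shown because Cbx7 carries the difference by origin. Beside them are those of Suz12, a partner that passed the test by origin at no stage. Both run 5′ to 3′ along the gene (RefSeq, GRCm38.p6), chr15:79932653-79932896 on the minus strand and chr11:79992856-79993105 on the plus strand, and capitals mark the CG pairs, where DNA methylation can sit.
Cbx7: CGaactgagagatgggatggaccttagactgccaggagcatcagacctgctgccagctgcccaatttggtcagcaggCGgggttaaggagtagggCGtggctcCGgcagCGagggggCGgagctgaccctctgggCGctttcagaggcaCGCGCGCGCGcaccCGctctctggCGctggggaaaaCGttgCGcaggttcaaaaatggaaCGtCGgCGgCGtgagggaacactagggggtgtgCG
Suz12: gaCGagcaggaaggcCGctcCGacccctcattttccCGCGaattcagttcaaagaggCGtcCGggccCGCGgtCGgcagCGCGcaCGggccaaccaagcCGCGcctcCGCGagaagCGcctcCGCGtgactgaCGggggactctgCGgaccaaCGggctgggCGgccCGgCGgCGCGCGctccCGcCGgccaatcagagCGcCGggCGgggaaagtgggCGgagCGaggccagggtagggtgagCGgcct
These stretches hold 21 CG in 244 bases and 37 CG in 250 bases. In the whole windows of 300 bases (250 before the start and 50 after), Cbx7 held 33 CG and Suz12 held 41, counting the letters CG, which read the same on both strands and cannot overlap. As many as in Cbx7 occurred in 8.56% of 32851 mouse promoters and as many as in Suz12 in 3.46%, with a median of 7. Of the 9 genes, 8 had a window, and the other 6 held 17 (Eed) to 31 (Cbx6 and Ezh2) CG. Methylation and binding in these windows were not measured here.

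At E9.5, none of the partners separated the gut cells by origin, while Cbx7 stood 4.84 ± 0.31 (log2 of TPM + 1, SE, n = 8 against 8) higher in exGut. Of the 8 partners, 0 passed the test, which asks for an adjusted p under 0.05 and a log2 difference over 1 in limma, against 2.35% of the 13473 genes tested. At an unadjusted p under 0.05, 2 of the 8 passed, beside 16.5% of all genes. None had groups that did not overlap, against 1.41% of all genes. Within regions, the difference in Cbx7 was 4.28 ± 0.23 in the midgut and 5.39 ± 0.23 in the hindgut.

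Cbx2, a chromobox subunit that compacts nucleosomes, was the main one of the 4 chromobox transcripts in the embryonic gut at E9.5. It stood at 26.8, 37.3, 16.7 and 37.5 TPM in emMidgut and at 35.8, 18.5, 13.3 and 15.3 in exMidgut. In the hindgut it stood at 28.1, 35.6, 29.4 and 34.0 TPM in emHindgut and at 17.4, 19.0, 27.1 and 15.8 in exHindgut. The hindgut groups did not overlap and the midgut groups did, and the log2 difference of -0.60 ± 0.21 (exGut minus emGut) did not pass (adjusted p = 0.128, limma). Cbx6, a less studied chromobox subunit, was at 3.33 to 7.68 TPM (median 4.89) in emGut and at 1.48 to 9.45 (median 3.57) in exGut. The groups overlapped, with a log2 difference of -0.35 ± 0.31 (adjusted p = 0.634, limma). Cbx8, another chromobox subunit of canonical PRC1, was at 0.98 to 7.60 TPM (median 3.30) in emGut and at 0.60 to 13.3 (median 3.39) in exGut. The spread covered any difference, at 0.09 ± 0.42 (adjusted p = 0.942, limma).

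Of the PRC2 genes, Ezh2, the main methyltransferase of dividing cells, was at 90.6 to 139 TPM (median 116) in emGut and at 70.1 to 130 (median 100.3) in exGut. Ezh1, the methyltransferase of more quiescent cells, was at 12.3 to 19.7 TPM (median 15.1) in emGut and at 6.67 to 25.2 (median 21.9) in exGut. Neither pair of groups separated, with log2 differences of -0.21 ± 0.13 for Ezh2 (adjusted p = 0.436, limma) and 0.27 ± 0.22 for Ezh1 (adjusted p = 0.599, limma). Eed, the subunit that binds the finished mark, was at 70.5, 65.9, 63.7 and 62.8 TPM in emMidgut and at 92.6, 87.6, 61.2 and 91.0 in exMidgut. In the hindgut Eed was at 82.8, 101, 90.7 and 97.2 TPM in emHindgut and at 138, 122, 108 and 110 in exHindgut. The 4 exHindgut libraries were above the 4 emHindgut ones and 3 of 4 exMidgut libraries above every emMidgut one, and the difference of 0.33 ± 0.15 did not pass (adjusted p = 0.281, limma). Eed shares 261 bases with E230029C05Rik, on the other strand, whose highest group mean was 1.39 TPM. Suz12, the scaffold of PRC2, spanned 20.8 to 43.7 TPM (median 30.4) in emGut and 22.7 to 42.4 (median 33.7) in exGut. Jarid2 spanned 33.6 to 58.5 TPM (median 45.4) in emGut and 35.8 to 49.1 (median 44.5) in exGut. Both overlapped throughout, with differences of 0.11 ± 0.18 for Suz12 (adjusted p = 0.836, limma) and -0.06 ± 0.13 for Jarid2 (adjusted p = 0.864, limma). The SEs, 0.13 to 0.22 on the log2 scale for these 5 PRC2 genes, include the difference between midgut and hindgut and leave room for small differences. Of the 34 other Polycomb genes tested, 0 passed (2.35% of all genes), with 3 at an unadjusted p under 0.05 (16.5% of all genes). Over the 42 partners and other Polycomb genes the differences ran from -1.06 (Asxl3) to 0.71 (Bmi1). With region as a covariate Asxl3 (-1.06, adjusted p = 0.0276) and Scml2 (-1.04, adjusted p = 0.035, limma) passed, and so did Scml2 without emMidgut replicate 2 (-1.25) or exMidgut replicate 3 (-1.16).

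Visceral and yolk sac endoderm markers moved with origin, at 5368 to 9668 TPM in exMidgut against 845 to 1289 in emMidgut and at 29.8 to 647 in exHindgut against 2.56 to 40.6 in emHindgut. Germ cell markers in emMidgut replicates 1 and 3 were named above, and without those 2 libraries 0 of the partners and other Polycomb genes passed and the difference in Cbx7 was 5.05. That fit had no region term and left fewer emMidgut than emHindgut libraries, with Cbx7 lower in emHindgut. The removal of these libraries and the changed mix of regions cannot be told apart in it. The 2 libraries left out held 5.57 and 9.98 TPM of Cbx7, and the emMidgut libraries kept held 7.26 and 11.8. The part of germ cells or of visceral and yolk sac endoderm in the other values was not tested. The test of whether the difference by origin varied with gut region passed in 0 of 8 partners at an adjusted p under 0.05 in limma, against 0.0965% of all genes. At an unadjusted p under 0.05 it passed in 0 of 8, against 7.81%. The widest term was that of Cbx8 (-1.34 ± 0.66, adjusted p = 0.648, limma), and in Cbx7 the difference was 1.11 ± 0.33 larger in the hindgut.

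**Figure D2:**
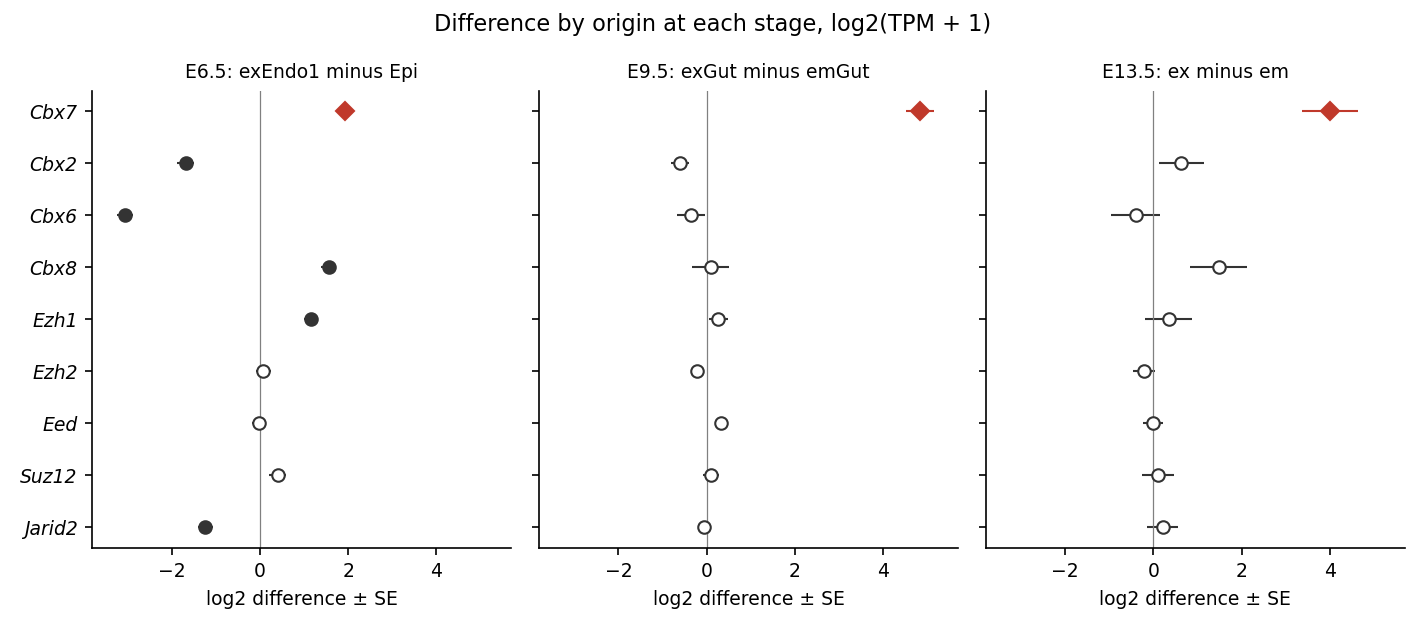
Log2 difference (extraembryonic minus embryonic, with SE) of Cbx7 (red diamonds, no test) and the 8 partners (circles, filled where called) at E6.5, E9.5 and E13.5. Cbx7 is to the right at every stage, 5 partners are called at E6.5, and 0 are called at E9.5 and E13.5.

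Summed over the 4 Polycomb chromobox genes Cbx2, Cbx6, Cbx7 and Cbx8, Cbx7 made up 84.5% ± 4.96 (SD, n = 4) of the transcripts in exMidgut and 84.1% ± 3.63 in exHindgut. In emMidgut it made up 18.9% ± 6.86 and in emHindgut 5.24% ± 1.58, and Cbx2 held 62.0% ± 10.7 and 72.7% ± 3.90 there. The sum without Cbx7 was 38.3 ± 10.9 TPM in emMidgut and 34.3 ± 16.3 in exMidgut, and 41.4 ± 3.42 in emHindgut and 25.4 ± 5.87 in exHindgut. With Cbx7, the total stood at 216 TPM in exMidgut against 46.9 in emMidgut and at 162 in exHindgut against 43.7 in emHindgut. At E6.5, Cbx7 held 49.8% ± 4.12 of the sum in Epi, 93.3% ± 1.84 in exEndo1 and 95.4% ± 2.61 in exEndo2, and in YsEndo it held 93.0% ± 2.27. At E13.5, its share ran from 48.0 to 78.0% over the exSI libraries and from 60.3 to 68.8% in exColon, against 0 to 19.6% in emSI and 0 to 31.6% in emColon. In PRC2, Ezh1 was the minor methyltransferase in every group, at 7.61 to 21.3% of the sum of Ezh1 and Ezh2.

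**Figure D3:**
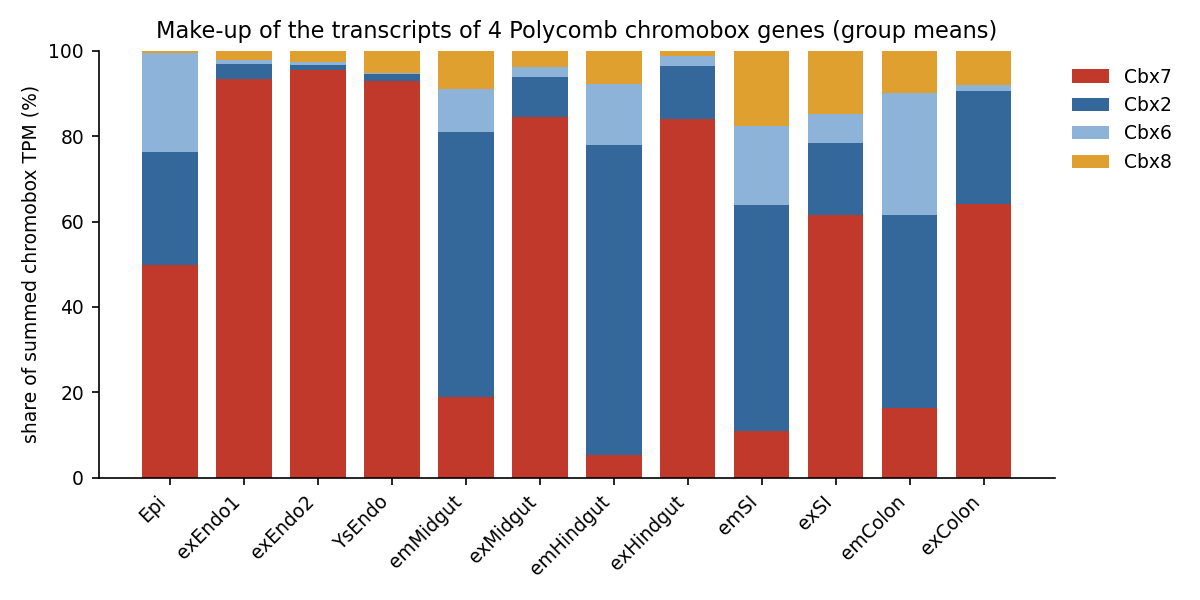
Share (%) of each of 4 Polycomb chromobox genes in the summed TPM of Cbx2, Cbx6, Cbx7 and Cbx8, as group means of the libraries' shares. Cbx7 (red) fills 84.1 to 95.4% in the extraembryonic groups up to E9.5, and Cbx2 (dark blue) is the main share in emMidgut and emHindgut.

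At E6.5, the comparison was between the epiblast and the distal extraembryonic endoderm. In exEndo1 against Epi, Cbx2, Cbx6 and Jarid2 were lower and Cbx8 and Ezh1 higher, so 5 of 8 partners passed, where 33.4% of the 12057 genes tested did (19.8% higher and 13.6% lower). The median over all genes was 0.09. Ezh2, Eed and Suz12 overlapped between the groups, while the other 5 did not, as was so for 56.6% of all genes. Cbx7 stood 1.94 ± 0.20 higher in exEndo1. Epiblast markers summed to 52.3 to 393 TPM in exEndo1 and to 1648 to 2867 in Epi, and the part of embryonic cells in the exEndo1 values was not tested.

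Cbx6 was at 19.0, 18, 19.1 and 13.4 TPM in Epi and at 1.61, 0.98, 1.05 and 1.2 in exEndo1, the widest gap among the partners. It was 3.05 lower on the log2 scale in exEndo1 (SE 0.18, adjusted p = 8.76e-08, limma). Cbx2 was at 18.4, 20.4, 25.2 and 15.7 TPM in Epi and at 5.95, 5.72, 3.96 and 6.35 in exEndo1. Its log2 difference was -1.68 ± 0.19 (adjusted p = 1.68e-05, limma). Cbx8 ran against these 2 genes, at 0.52, 0.37, 0.77 and 0.28 TPM in Epi and at 2.68, 3.50, 4.03 and 3.31 in exEndo1. It was 1.56 ± 0.17 higher in exEndo1 (adjusted p = 1.07e-05, limma), at a low level in both. No Epi library exceeded 1 TPM, so Cbx8 entered the test through exEndo1 alone, the group where it was higher. It dropped out of the test when any exEndo1 replicate was left out.

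Ezh1 was at 9.12, 11.2, 10.9 and 10.3 TPM in Epi and at 19.6, 25.4, 25.3 and 26.5 in exEndo1, with no overlap. Its log2 difference was 1.15 ± 0.15 (adjusted p = 5.04e-05, limma), and with median-ratio scaling it was 1.00 and with quantile normalization 0.81, which do not pass the fold threshold. Jarid2 was at 49.7, 47.9, 53.0 and 59.7 TPM in Epi and at 22.2, 23.6, 15.6 and 26.2 in exEndo1. Every exEndo1 library was below every Epi library, with a log2 difference of -1.24 ± 0.17 (adjusted p = 5.78e-05, limma). The core of PRC2 did not separate the tissues. Ezh2 was at 118, 115, 107 and 183 TPM in Epi and at 157, 124, 130 and 131 in exEndo1 (0.08 ± 0.17, adjusted p = 0.702, limma). Eed was at 138, 99.1, 108 and 168 TPM in Epi and at 132, 120, 131 and 115 in exEndo1 (-0.02 ± 0.16, adjusted p = 0.943, limma). Suz12 was at 76.1, 60.3, 56.4 and 108 TPM in Epi and at 98.4, 79.4, 106 and 104 in exEndo1 (0.40 ± 0.19, adjusted p = 0.0916, limma). Epi replicate 4 was the highest of its group in all 3 of these genes.

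Of 32 other Polycomb genes tested, 10 passed, 6 higher and 4 lower in exEndo1, a share near that over all genes (33.4%, with 19.8% higher and 13.6% lower). Among the PCGF proteins that define the kinds of PRC1, Pcgf5 averaged 94.6 ± 8.49 TPM (SD, n = 4) in exEndo1 and 6.97 ± 2.34 in Epi (log2 difference 3.63, adjusted p = 9.29e-08, limma). Bmi1, a PCGF protein of canonical PRC1, averaged 26.2 ± 4.48 TPM in exEndo1 and 5.40 ± 1.97 in Epi (2.12, adjusted p = 6.77e-06, limma). Lcor, whose locus also encodes a PRC2-associated protein, averaged 39.2 ± 3.42 TPM and 13.2 ± 1.95 (1.50, adjusted p = 4.43e-06, limma). These 3 were the widest of the 6 upward differences. Phc1, a polyhomeotic subunit, averaged 8.58 ± 1.61 TPM in exEndo1 and 165 ± 29.4 in Epi (-4.12, adjusted p = 1.03e-08, limma). Kdm2b, which brings variant PRC1 to unmethylated CG-rich DNA, averaged 19.1 ± 3.44 TPM in exEndo1 and 46.2 ± 0.910 in Epi (-1.25, adjusted p = 2.37e-05, limma). Auts2, a variant PRC1 subunit, averaged 10.3 ± 3.35 TPM in exEndo1 and 23.5 ± 6.25 in Epi (-1.14, adjusted p = 0.0029, limma). Phc1 had the widest difference of all 40 partners and other Polycomb genes tested.

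**Figure D4:**
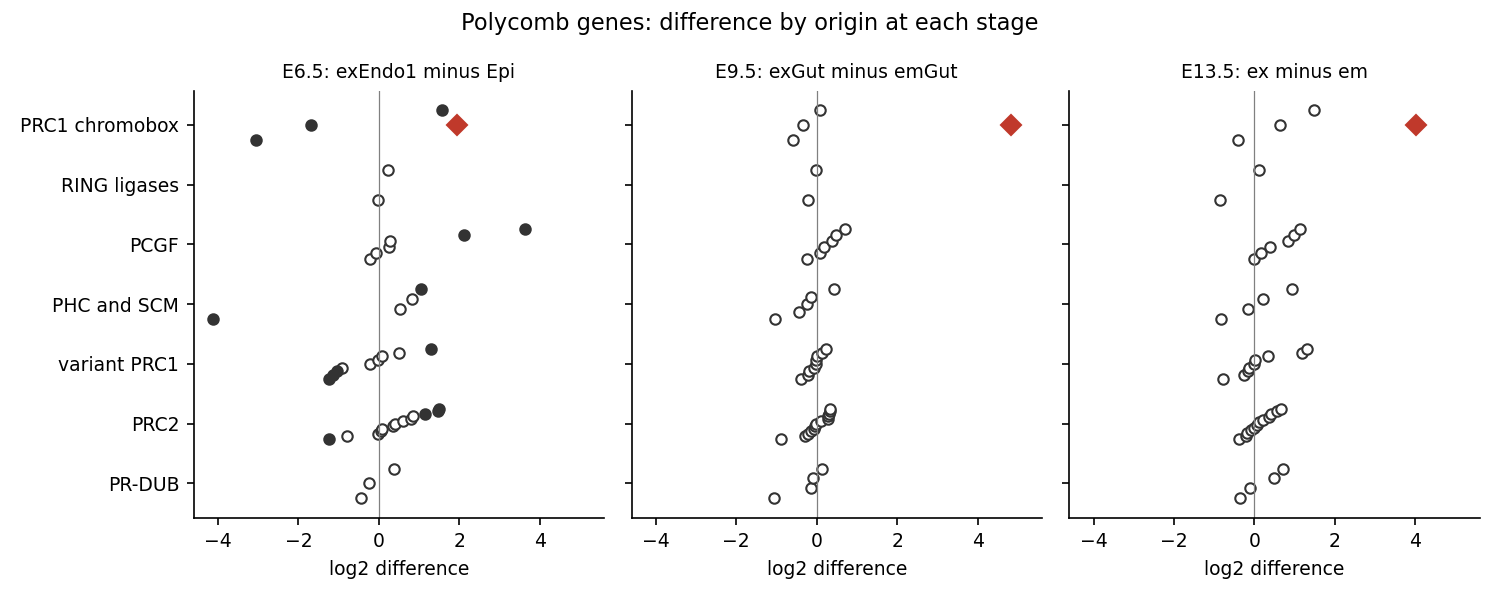
Log2 difference by origin at E6.5, E9.5 and E13.5 of 43 Polycomb genes by role (rows), where tested, with called genes filled and Cbx7 as a red diamond with no test. At E6.5 the genes run from -4.12 (Phc1) to 3.63 (Pcgf5), at E9.5 the 42 other than Cbx7 run from -1.06 to 0.71, and Cbx7 stands to the right of all others at E9.5 and E13.5.

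Whether the difference by origin itself changed from E6.5 to E9.5 was tested with an interaction term. It did so in 5 of 8 partners, against 34.3% of the 14089 genes tested, with a median over all genes of -0.12. The difference in Cbx6 moved by 2.71 ± 0.44 (adjusted p = 2.3e-05, limma), that in Jarid2 by 1.18 ± 0.19 (adjusted p = 2.3e-05, limma) and that in Cbx2 by 1.08 ± 0.33 (adjusted p = 0.0128, limma). These 3 were lower in extraembryonic cells at E6.5 and overlapped between origins at E9.5. The difference in Cbx8 moved by -1.47 ± 0.48 (adjusted p = 0.0182, limma) and that in Ezh1 by -0.87 ± 0.33 (adjusted p = 0.0448, limma). The Ezh1 term passed in 11 of 30 alternatives, with adjusted p up to 0.31. With all 44 libraries in one fit, Cbx2 (adjusted p = 0.125) and Cbx8 (adjusted p = 0.0911, limma) did not pass either. Relative to the median, these changes were 2.82 in Cbx6, 1.30 in Jarid2, 1.19 in Cbx2, -1.35 in Cbx8 and -0.75 in Ezh1. Those of Ezh2 (-0.29), Eed (0.35) and Suz12 (-0.29) did not pass, and Eed passed with median-ratio scaling (0.52, adjusted p = 0.0277) and quantile normalization (0.54, adjusted p = 0.0218, limma). In Cbx7 the difference widened by 2.90 ± 0.27. Of the 34 other Polycomb genes, 12 passed, the widest being Phc1 (3.68), Kdm2b (1.24) and Auts2 (0.92) upward and Pcgf5 (-3.17), Bmi1 (-1.41) and Phc2 (-1.29) downward. With median-ratio scaling, 2511 genes moved upward and 2474 downward, against 1904 and 2931 without it.

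At E13.5, Cbx7 stood 4.01 ± 0.64 (log2, SE, n = 6 against 6) higher in the Trp53 KO extraembryonic cells of the intestine, and 0 of 8 partners passed. Over all 12483 genes, 0.625% passed with a median difference of 0.11, and 1 of the 8 partners was under an unadjusted p of 0.05, as were 11.3% of all genes. None of the 8 had groups apart over both organs, as 1.16% of all genes did. The difference in Cbx7 was 4.23 ± 0.93 in the small intestine and 3.78 ± 0.93 in the colon. Relative to the median of all genes it was 3.90 over both organs, and with a pseudocount of 0.1 in place of 1 it was 5.22.

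Cbx8 came closest to passing, at 12.7, 0.59 and 6.48 TPM in emSI and at 13.6, 19.5 and 13.4 in exSI. In the colon it was at 3.26, 0 and 11 TPM in emColon and at 11.3, 6.24 and 9.04 in exColon. The organs' embryonic libraries were widely spread, and the difference of 1.48 ± 0.65 did not pass (adjusted p = 0.394, limma), though it did where all 44 libraries shared 1 fit (adjusted p = 0.0132). Cbx2 was at 1.96 to 24.0 TPM (median 17.1) in the 6 embryonic libraries and at 8.93 to 34.3 (median 24.3) in the 6 extraembryonic ones. Cbx6 was at 2.10 to 9.80 TPM (median 4.53) and at 0.02 to 12 (median 3.87). Both overlapped, with differences of 0.64 ± 0.52 for Cbx2 (adjusted p = 0.717, limma) and -0.40 ± 0.55 for Cbx6 (adjusted p = 0.847, limma). For the PRC2 genes the differences lay between -0.21 (Ezh2) and 0.35 (Ezh1), with adjusted p of 0.811 or more in limma. Of 32 other Polycomb genes, 0 passed (0.625% of all genes), with 4 at an unadjusted p under 0.05 (11.3% of all genes). The SEs of the 8 partners ran from 0.22 to 0.65 here and from 0.13 to 0.42 at E9.5, and replicates within a group correlated at 0.850 to 0.911 over genes against 0.934 to 0.965 in the gut at E9.5. Mesenchyme markers stood at 401 and 102 TPM in 2 emSI libraries, and without these the difference in Cbx7 was 4.53 and 0 of the partners and other Polycomb genes passed. From E9.5 to E13.5, the test of a change in the difference by origin passed in 0 of 8 partners and in 0.200% of the 14483 genes tested (limma), with a median over all genes of 0.13. At an unadjusted p under 0.05, 1 of 8 partners and 9.77% of all genes passed. In Cbx7 the change was -0.83 ± 0.67. The calls over all genes, 16 upward and 13 downward, split into 13 and 17 with median-ratio scaling.

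Within the extraembryonic endoderm of E6.5, Cbx2 alone among the 8 partners passed the test between the distal and the proximal part, where 6.41% of 11414 genes did (3.96% higher in exEndo1 and 2.45% lower). Cbx2 was at 5.95, 5.72, 3.96 and 6.35 TPM in exEndo1 and at 1.09, 2.32, 2.41 and 1.72 in exEndo2. The groups did not overlap, as for 19.6% of all genes, and the difference was 1.18 ± 0.22 (adjusted p = 0.00525, limma, and 0.00263 with the replicate number as a block). The call was lost with all 44 libraries in one fit (adjusted p = 0.104). Epiblast markers (5 genes) summed to 393, 283, 52.3 and 229 TPM in exEndo1 and to 5.21 to 35.1 in exEndo2. EGFP RNA, which marks embryonic cells, stood at 1.09, 13.7, 0.07 and 15.9 TPM in exEndo1 and at 0 to 3.59 in exEndo2. The part of embryonic cells in the Cbx2 value was not tested. Ezh2 was at 157, 124, 130 and 131 TPM in exEndo1 and at 120, 119, 94.2 and 123 in exEndo2. Its groups did not overlap either, by a narrow gap, and its difference of 0.25 ± 0.12 did not pass (adjusted p = 0.199, limma). The other 6 partners overlapped, and Cbx7 differed by -0.13 ± 0.28. Of 32 other Polycomb genes, Auts2 (1.21, adjusted p = 0.00919) was higher in exEndo1 and Epop, a PRC2 accessory gene, lower (-1.24, adjusted p = 0.000393, limma), the latter not with all 44 libraries in one fit.

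Extraembryonic cells that entered the gut and those that formed yolk sac endoderm differed in 4 of 8 partners, all higher in exGut, where 42.4% of 12801 genes passed (32.3% higher and 10.0% lower). In this comparison the median over all genes was 0.59, and the split of calls rested on scaling, at 4138 higher and 1285 lower as deposited and 2698 higher and 2275 lower with median-ratio scaling. Values relative to that median are therefore given too. Cbx7 was 1.11 ± 0.17 higher in exGut, or 0.52 relative to the median. Groups that did not overlap were found in 4 of the 8 partners and in 43.5% of all genes.

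Cbx2 was at 1.25, 0.69, 2.20 and 0.65 TPM in YsEndo and at 13.3 to 35.8 (median 18) in exGut. It was 3.26 ± 0.29 higher in exGut (2.67 relative to the median, adjusted p = 2.68e-07, limma). Cbx6 was nearly silent in YsEndo, at 0.07, 0.12, 0.11 and 0.11 TPM, against at least 1.48 in each exGut library. Its difference was 2.13 ± 0.39 (1.54 relative to the median, adjusted p = 0.000285, limma). Cbx6 entered this test through exGut alone, as no YsEndo library exceeded 1 TPM. Cbx8 was at 3.60, 4.79, 4.35 and 3.07 TPM in YsEndo, within the range of exGut (-0.02 ± 0.51, or -0.62 relative to the median, adjusted p = 0.972, limma). Jarid2 was at 12.9, 8.42, 13.1 and 9.33 TPM in YsEndo and at 35.8 or more in exGut, 1.89 ± 0.17 higher (1.30 relative to the median, adjusted p = 2.84e-07, limma). Ezh2 was at 49.9, 44.8, 38.0 and 37.4 TPM in YsEndo, below every exGut library. Its difference of 1.19 ± 0.16 (0.60 relative to the median, adjusted p = 2.05e-05, limma) fell under the fold threshold with median-ratio scaling (0.60) and with quantile normalization (0.94). Eed (0.73 ± 0.18, adjusted p = 0.00327, limma) passed on p but not on fold, and stood at 0.13 relative to the median. Ezh1 (0.67 ± 0.30, adjusted p = 0.0637) and Suz12 (-0.36 ± 0.20, adjusted p = 0.139, limma) passed neither, and stood at 0.08 and -0.95 relative to the median. Of 32 other Polycomb genes, 15 were higher in exGut, where 32.3% of all genes were, and 2 lower, where 10.0% were. Auts2 (4.08), Phc1 (2.96) and Scmh1 (2.62) led the higher ones, and Epop (-2.61) and Pcgf5 (-1.45) were lower. Relative to the median these were 3.48 in Auts2, 2.36 in Phc1, 2.03 in Scmh1, -3.20 in Epop and -2.05 in Pcgf5. Auts2 averaged 0.414 TPM in YsEndo and entered the test through exGut alone. With median-ratio scaling 13 of the partners and other Polycomb genes passed, against 21.

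**Figure D5:**
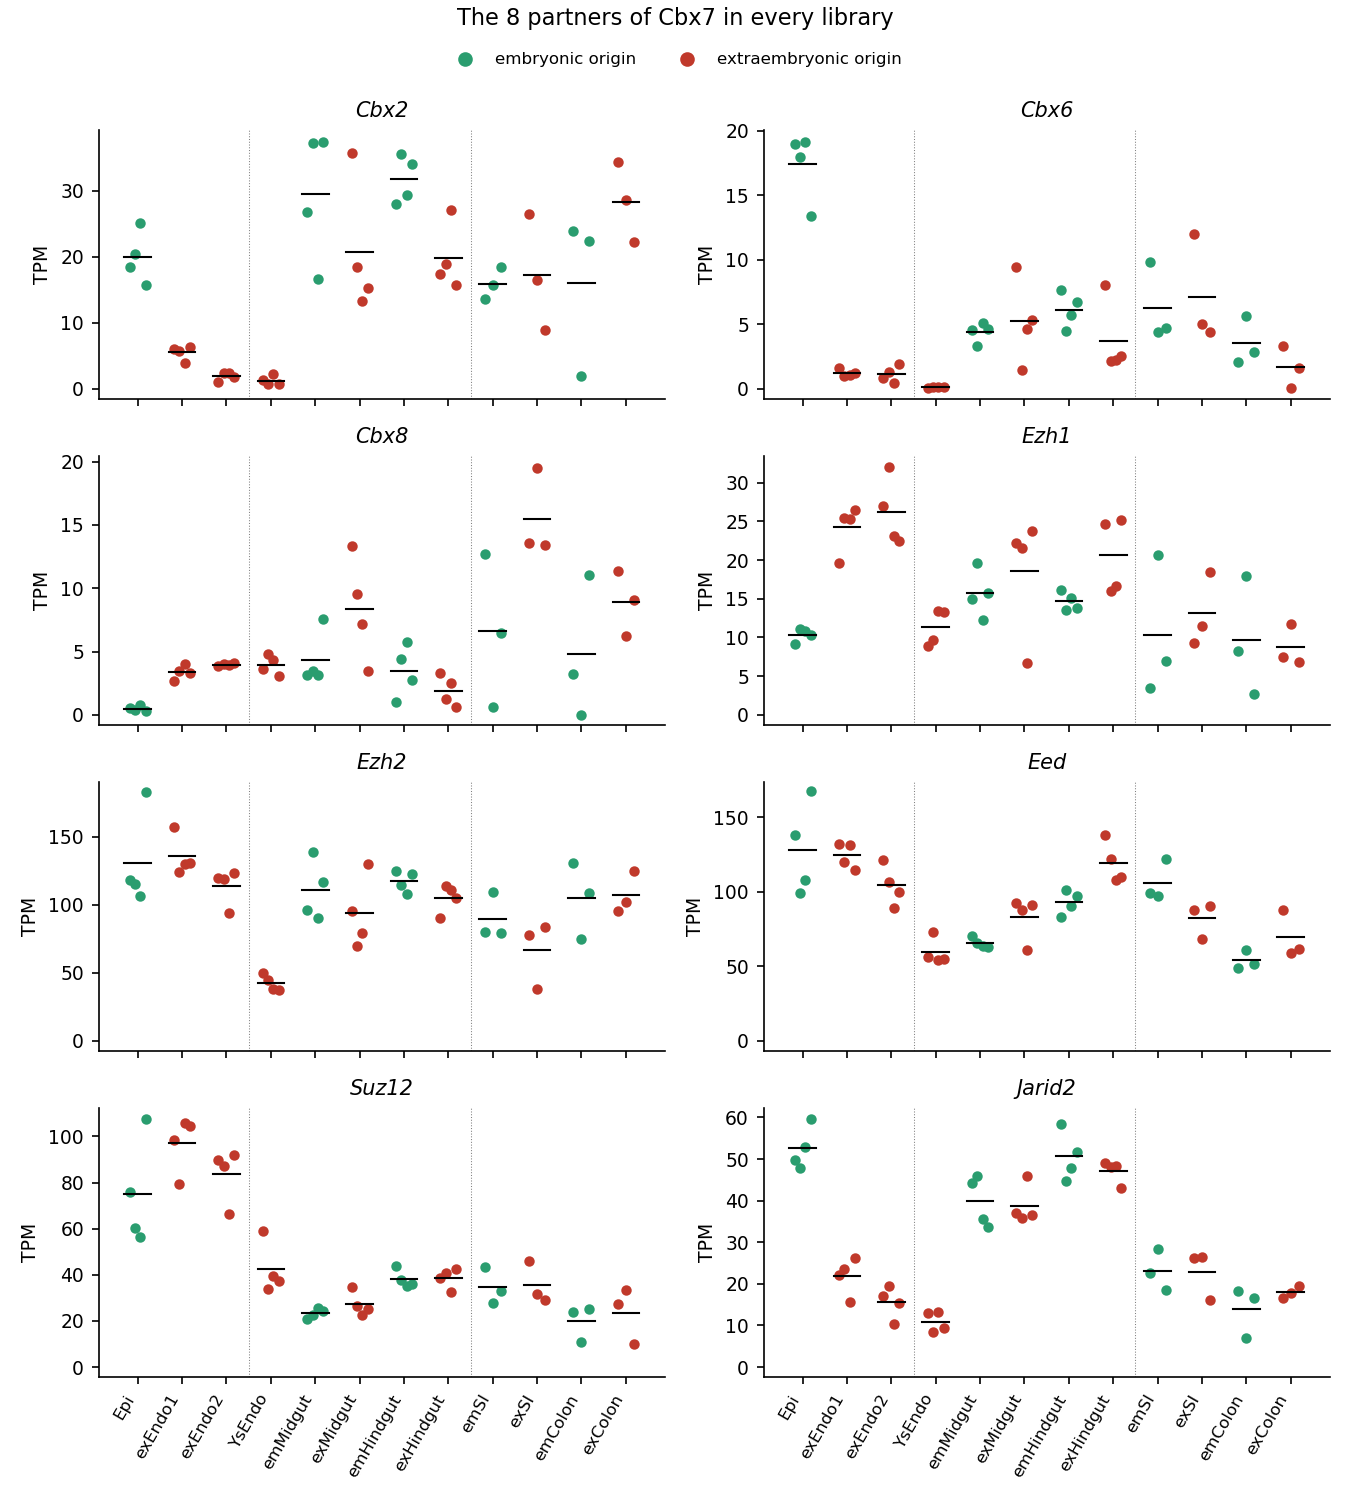
TPM of the 8 partners in each of the 44 libraries (points, linear axes that differ between panels) with group means (black lines), coloured by origin. Cbx2, Cbx6 and Jarid2 are low in exEndo1, exEndo2 and YsEndo and higher in Epi and the E9.5 gut of both origins, and Suz12 is high at E6.5.

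From E6.5 to E9.5, both lineages lowered Suz12 and differed in the chromobox genes. The 2 comparisons share no library, and dissection by hand gave way to sorting between the stages. From Epi to emGut, 3 of 8 partners passed where 29.7% of 13053 genes did (22.4% higher and 7.31% lower), with a median over all genes of 0.30. From exEndo1 to exGut, 3 of 8 passed where 30.3% of 12931 genes did (18.8% higher and 11.5% lower), with a median of 0.13. Cbx7 stood 2.79 lower on the log2 scale in emGut than in Epi (-2.79 ± 0.42), with no overlap. In exGut it stood 0.11 ± 0.18 above exEndo1, with overlapping libraries.

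Suz12 was at 56.4 to 108 TPM in Epi, 79.4 to 106 in exEndo1, 20.8 to 43.7 in emGut and 22.7 to 42.4 in exGut, so that no gut library reached an E6.5 one. It fell by 1.26 ± 0.22 on the log2 scale in the embryonic lineage (adjusted p = 0.000337, limma) and fell by 1.55 ± 0.18 in the extraembryonic one (adjusted p = 8.46e-06, limma). Cbx6 fell from 13.4 to 19.1 TPM in Epi to 3.33 to 7.68 in emGut (-1.57 ± 0.23, adjusted p = 5.51e-05, limma). In the extraembryonic lineage Cbx6 went the other way, from 0.98 to 1.61 TPM to 1.48 to 9.45 (1.14 ± 0.40, adjusted p = 0.0281, limma). That call was lost with quantile normalization (0.58, adjusted p = 0.238), and also without exEndo1 replicate 2 (adjusted p = 0.0769), 3 (0.0726) or 4 (0.0664) or without exMidgut replicate 1 (0.98 on the log2 scale). Cbx8 rose from 0.28 to 0.77 TPM in Epi to 0.98 to 7.60 in emGut (1.62 ± 0.34, adjusted p = 0.00125, limma), with a difference of 0.15 ± 0.51 in the extraembryonic lineage (adjusted p = 0.825, limma). With every Epi library under 1 TPM, Cbx8 entered the test of the embryonic lineage through emGut alone. Cbx2 rose from 3.96 to 6.35 TPM in exEndo1 to 13.3 to 35.8 in exGut (1.66 ± 0.26, adjusted p = 0.000127, limma). In the embryonic lineage Cbx2 passed on p alone (0.58 ± 0.21, adjusted p = 0.0328, limma). Jarid2 passed on p alone in the extraembryonic lineage (0.95 ± 0.17, adjusted p = 0.00029, limma), from 15.6 to 26.2 TPM to 35.8 to 49.1 with no overlap. Eed in the embryonic lineage (-0.68 ± 0.17, adjusted p = 0.00499), Ezh1 there (0.50 ± 0.17, adjusted p = 0.0245) and Ezh2 in the extraembryonic lineage (-0.46 ± 0.15, adjusted p = 0.0229, limma) also passed on p alone. Relative to the medians of all genes, the difference in Suz12 was -1.56 and -1.68 in the embryonic and the extraembryonic lineage, that in Cbx6 -1.86 and 1.01, that in Cbx8 1.32 and 0.02 and that in Cbx2 0.28 and 1.53. Groups did not overlap in 4 of 8 partners in the embryonic lineage (33.6% of all genes) and in 3 of 8 in the extraembryonic one (32.7%). With median-ratio scaling, 2187 genes were higher and 1611 lower in emGut than in Epi, against 2920 and 954 as deposited, and Eed then passed (-1.01, adjusted p = 0.000374, limma).

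Of 34 other Polycomb genes, 8 passed from Epi to emGut, 4 higher and 4 lower, against 29.7% of all genes (22.4% higher and 7.31% lower). Phc2 (2.12), Scmh1 (1.91) and Asxl3 (1.80) rose most and Phc1 (-2.81), Asxl2 (-1.43) and Epop (-1.19) fell most. Relative to the median of 0.30, the differences named were 1.83, 1.61, 1.50, -3.10, -1.72 and -1.49, in that order. Asxl3 averaged 0.466 TPM in Epi and entered the test through emGut alone. From exEndo1 to exGut, 6 of 33 passed, 2 higher and 4 lower, against 30.3% of all genes (18.8% higher and 11.5% lower). Scmh1 (1.26) and Auts2 (1.13) rose, both calls lost with quantile normalization and that of Auts2 also with median-ratio scaling. Pcgf5 (-2.61), Epop (-2.07) and Asxl2 (-1.66) fell most. Relative to the median of 0.13, the differences named were 1.13, 1.00, -2.74, -2.20 and -1.79, in that order.

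From E9.5 to E13.5, Jarid2 fell in the gut of both origins. In the embryonic gut it went from 33.6 to 58.5 TPM to 7.03 to 28.4, a difference of -1.32 ± 0.26 (adjusted p = 0.00155, limma). In the extraembryonic gut it went from 35.8 to 49.1 TPM to 16.2 to 26.3, a difference of -1.05 ± 0.20 (adjusted p = 0.0015, limma). No library of the later stage reached one of the earlier in either lineage, as was so for 1 of 8 partners in each, against 8.01% and 4.83% of all genes. With quantile normalization the differences were -0.96 and -0.88, both under the fold threshold. Median-ratio scaling gave -1.03 and -0.87, the second under the threshold, as it also was without exColon replicate 1 (-0.99) or exSI replicate 3 (-0.99). The median over all genes was -0.46 in the embryonic and -0.28 in the extraembryonic gut, which leaves -0.87 and -0.77 for Jarid2 relative to it, and the calls split into 398 higher and 2265 lower and into 469 and 1516. With median-ratio scaling they split into 614 and 1333 and into 605 and 1111.

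In the embryonic gut 2 of 8 partners passed (19.7% of 13525 genes, 2.94% higher and 16.7% lower), Jarid2 and Cbx2. Cbx2 went from 16.7 to 37.5 TPM to 1.96 to 24.0 (-1.12 ± 0.40, adjusted p = 0.0454, limma), and the call was lost in 16 of 23 alternatives, with adjusted p up to 0.184 and a difference of -0.64 without emColon replicate 2. Relative to the median its difference was -0.66. In the extraembryonic gut 2 of 8 passed (14.7% of 13460 genes, 3.48% higher and 11.3% lower), Jarid2 and Cbx8. Cbx8 went from 0.60 to 13.3 TPM to 6.24 to 19.5 (1.38 ± 0.38, adjusted p = 0.0176, limma), or 1.66 relative to the median, with overlap, and without the region covariate its adjusted p was 0.0558. Cbx7 went from 112 to 205 TPM in exGut to 48.0 to 94.7 (-1.22 ± 0.18, or -0.94 relative to the median), with no overlap. In the embryonic gut it differed by -0.39 ± 0.64. Genotype changed with stage in the extraembryonic gut, and genotype and stage cannot be told apart there. In the embryonic gut the sort changed with stage, from GFP+ cells with low mCherry to GFP+ cells, and sort and stage cannot be told apart. Of the other Polycomb genes, 6 of 34 were called in the embryonic gut, all lower at E13.5, where 16.7% of all genes were, and Scmh1 (-1.79), Phc1 (-1.22) and Bcor (-1.20) fell most. Relative to the median these 3 differences were -1.33, -0.76 and -0.74. Phc1 and Bcor lost the call with median-ratio scaling and with quantile normalization, and Scmh1 with quantile normalization. In the extraembryonic gut, Kdm2b fell (-1.73, or -1.45 relative to the median), the 1 called of 32.

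Other lists of genes near Polycomb in function held no gene called by origin at E9.5, while the proliferation genes leaned lower in exGut. The heterochromatin chromobox genes Cbx1, Cbx3 and Cbx5, which read methylation of lysine 9 of histone H3, had 0 of 3 called and 1 of 3 past the adjusted p, lower in exGut, as 3.61% of all genes were past it in either direction. The demethylases Kdm6a and Kdm6b, which remove the PRC2 mark, had 0 of 2 called. Of 10 proliferation genes, 0 were called, 1 passed the adjusted p and 8 an unadjusted p under 0.05 (16.5% of all genes), and all 10 had lower values in exGut, with a median of -0.56 beside -0.03 over all genes. At E6.5, Kdm6b was higher in exEndo1 (1.37, adjusted p = 9.77e-06, limma), 0 of 3 heterochromatin genes were called, and 3 of 10 proliferation genes were lower, led by Mcm2 (-1.53) and Mcm5 (-1.33). Over all genes 33.4% were called there, 19.8% higher and 13.6% lower. In exGut against YsEndo, both demethylases (Kdm6a 1.19, Kdm6b 1.17) and 2 of 3 heterochromatin genes (Cbx5 1.72, Cbx1 1.65) were higher, where 32.3% of all genes were, and 1 of 10 proliferation genes, Birc5, lower (-1.35). Relative to the median of all genes these differences were 0.60 in Kdm6a, 0.58 in Kdm6b, 1.13 in Cbx5, 1.06 in Cbx1 and -1.94 in Birc5, and the 2 demethylases lost the call with median-ratio scaling and with quantile normalization. At E13.5, 0 of these 15 genes were called (0.625% of all genes), and 3 of the proliferation genes were at an unadjusted p under 0.05 (11.3% of all genes). Between exEndo1 and exEndo2, 0 of the 15 were called (6.41% of all genes).

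The genes whose group means lay closest to Cbx7 were ranked by Pearson correlation of mean log2(TPM + 1) over the 12 groups. They were Zfp951 (r = 0.974 over the 12 groups and 0.81 over the 44 libraries), Gm14393 (0.944 and 0.622), Tex19.1 (0.937 and 0.847), Gm14418 (0.931 and 0.70) and Mageb16 (0.93 and 0.873). Tex19.1, a gene of germ cells and placenta, averaged 34.6 TPM in exMidgut and 40.5 in exSI and was listed at 0 in every library of emMidgut, emSI and emColon. Mageb16, an X-linked member of a family usually confined to the germ line, averaged 46.2 TPM in exHindgut and was listed at 0 in emHindgut. Gm14393 and Gm14418 belong to a cluster of near-identical zinc finger genes, so their counts are uncertain. Of the partners, Ezh1 lay closest to Cbx7 (r = 0.57 over the 12 groups, rank 765 of 14695 genes), followed by Suz12 (0.43), Eed (0.27) and Cbx8 (0.17). Cbx2 (-0.40), Cbx6 (-0.40), Jarid2 (-0.11) and Ezh2 (-0.10) lay below 0. These correlations describe 12 group means that share stages, tissues and reporters.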

How the data were processed

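RNA of 44 low-input libraries was read per gene. Before deposit, the authors used cutadapt 4.1 for trimming, STAR 2.7.9a for alignment to mm10 with GFP and mCherry added, and StringTie 2.0.6 with GENCODE VM23 for quantification. The deposited tables give TPM, FPKM and read coverage per gene, with no counts, so a count model could not be used. TPM was summed over the rows of a gene ID (3 to 11 duplicated rows per library). FPKM served for one alternative, and the coverage (signal) for depth alone.

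Differences were tested with limma 3.58.1 (R 4.3.3, eBayes with trend, two-sided, Benjamini-Hochberg over all genes tested) on log2(TPM + 1), which understates the change of low genes. Genes were protein-coding in GENCODE vM21, not Y-linked, and above 1 TPM in at least 4 libraries (3 in comparisons with E13.5). A call needed an adjusted p under 0.05 and, except for interactions, an absolute log2 difference over 1. Origin at E9.5 was fitted without a region term, origin at E13.5 with organ, and change from E9.5 to E13.5 with region. Scripts were tested on simulated data. Members, lists and tests were chosen with earlier results of these data known. Named genes were all 9 members, at most the 3 widest called differences per direction of 34 other Polycomb genes, at most 2 per direction of the heterochromatin, demethylase and proliferation lists, the 5 genes most like Cbx7, and Trp53. One item of the list is not reported here. Other genes named (Apobec3, Asxl3, Scml2, the reporters and the genes at the ends of a range) were chosen after their values were seen. No 2 libraries held identical values. p-values measure the spread between the libraries of a group. Where midgut and hindgut libraries were pooled without a region term, that spread includes the difference between regions. This holds for exGut against emGut or YsEndo, for Epi to emGut and for exEndo1 to exGut.

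Replicate numbers paired exEndo1 with exEndo2, whose same-numbered libraries deviated together (correlations of 0.132 to 0.361, against -0.278 to 0.112 for other numbers), a pairing read from the data, and the block changed no call of the 8 partners there. Other groups shared only a number. Alternatives were median-ratio scaling, a pseudocount of 0.1, quantile normalization, no fold threshold, all genes kept whatever their level, all 44 libraries in one fit, a region or organ term added or dropped, a replicate block, each replicate left out, and, chosen after seeing the data, the emMidgut or emSI libraries with markers of other cells left out.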

Additional observations from a re-analysis of the deposited data

Results flagged for a closer look

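A library stood far from the other 3 of its group (Dixon's test at the 95% level) in 10 of 72 groups tested, where chance gives about 1 in 20. For the chromobox genes these were Cbx6 at 0.07 TPM in YsEndo replicate 1 and at 8.00 TPM in exHindgut replicate 1, and Cbx8 at 7.60 TPM in emMidgut replicate 4. For the methyltransferases they were Ezh1 at 6.67 TPM in exMidgut replicate 3, and Ezh2 at 183 TPM in Epi replicate 4 and at 94.2 TPM in exEndo2 replicate 3. For the other PRC2 genes they were Eed at 72.9 TPM in YsEndo replicate 2 and at 61.2 TPM in exMidgut replicate 3, and Jarid2 at 46.0 TPM in exMidgut replicate 3 and at 43.0 TPM in exHindgut replicate 4. Of the 10 values, 3 came from exMidgut replicate 3.

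The difference by origin changed from E6.5 to E9.5 (interaction, limma, adjusted p under 0.05) in Cbx2 (1.08), Cbx6 (2.71), Cbx8 (-1.47), Ezh1 (-0.87) and Jarid2 (1.18) among the partners. Among the other Polycomb genes named, it changed in Phc1 (3.68), Kdm2b (1.24), Auts2 (0.92), Pcgf5 (-3.17), Bmi1 (-1.41) and Phc2 (-1.29).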

How the results depend on the processing

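The 25 calls of partners kept direction and threshold in 458 of 511 repeats under other settings, lost the threshold in 53 and reversed in 0, and 13 of 1605 repeats of the 71 uncalled values passed. The setting with no fold threshold cannot lose a call, and fits without 1 replicate share most of their libraries. Repeats in which Cbx8 dropped out of the test of exEndo1 against Epi were not counted. The share kept is therefore no measure of independent support. The fitted difference in Cbx7 between exGut and emGut (4.84) was 4.85 with median-ratio scaling and 4.68 to 5.01 without 1 replicate, and the difference of group means was 4.61 by FPKM. Among its other differences, that between regions (1.11) was 1.44 with a pseudocount of 0.1, and the widening from E6.5 to E9.5 (2.90) was 3.35 with quantile normalization. The counts below are of partners and other Polycomb genes called, with the range without 1 replicate in parentheses. By origin at E9.5 the count of 0 became 2 with all 44 libraries in one fit and with region as a covariate (0 to 1), and by region it stayed at 0 throughout. By origin at E6.5, 15 became 24 with no fold threshold (12 to 14). Between exEndo1 and exEndo2, 3 became 6 with no fold threshold and 1 with all 44 libraries (3 to 3). Between exGut and YsEndo, 21 became 11 with quantile normalization and 13 with median-ratio scaling (19 to 22). By origin at E13.5, 0 became 4 with all 44 libraries, namely Cbx8 (1.48), Bmi1 (1.12), Bcorl1 (1.31) and E2f6 (1.17) (0 to 0). From Epi to emGut, 11 became 20 with no fold threshold (10 to 12), and from exEndo1 to exGut 9 became 20 (6 to 9). From E9.5 to E13.5, 8 became 1 with quantile normalization and 2 with median-ratio scaling in the embryonic gut (5 to 10, lowest at 5 without emColon replicate 2, emHindgut replicate 3 or emHindgut replicate 4), and 3 became 7 with no fold threshold and 5 with all 44 libraries in the extraembryonic gut (2 to 4). For the change of the difference by origin, 17 became 11 with all 44 libraries between E6.5 and E9.5 (13 to 17) and 0 became 2 between E9.5 and E13.5 (0 to 0). Where not given by the setting's own construction, the cause was not tested.

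With the replicate number as a block, the counts were 0 by origin and by region at E9.5, 15 for exEndo1 against Epi, 3 for exEndo1 against exEndo2, 21 for exGut against YsEndo and 0 at E13.5, and 2 with the block and region together at E9.5. Outside exEndo1 and exEndo2, same-numbered libraries correlated at -0.15 to 0.16 in their deviations. Reads per gene were unknown, so no counting interval could be given, and levels under 1 TPM and the E13.5 groups, with 3 libraries and single embryos, carried the least certainty.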
